A study of Homo sapiens with 6 samples.

Results

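Clathrin-mediated endocytosis is the uptake route in which a clathrin lattice bends a patch of the plasma membrane into a vesicle. The genes described here are 35 components of that route, chosen by name, with earlier results of these data known. Of these, 34 have a row in the deposited table of 19498 genes and 1, the amphiphysin gene AMPH, has none. All 34 passed the filter on low values, a normalised count of 10 or more in at least 3 of the 6 libraries, as did 16658 genes in all. DAB2, the lowest of them, passed through the 3 WT libraries and 1 KO-labelled library.

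The libraries are of polyadenylated RNA from K562, a human chronic myeloid leukaemia line that carries the BCR::ABL1 fusion kinase, grown in RPMI with fetal bovine serum. There are 3 biological replicates of the WT genotype and 3 of the genotype labelled ACK KO. ACK is the tyrosine kinase encoded by TNK2. It is known to bind activated Cdc42, clathrin and the sorting nexin SNX9. The series itself is about ACK and transcription driven by STAT5. TNK2 mRNA did not separate the groups: its values were 829.7, 613 and 642 in WT against 741, 506 and 598 in the libraries labelled KO (log2 difference -0.18, SE 0.21, adjusted p 0.681, limma). It therefore does not check the labels, and the libraries are called KO-labelled. The labels give K562 for both genotypes and do not say how many lines or clones stand behind each. Genotype and line or clone therefore cannot be told apart.

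In this route the adaptor AP-2 is opened at the membrane by early proteins of the FCHO, EPS15 and intersectin families, binds cargo receptors and recruits clathrin. Clathrin triskelia, built of heavy and light chains, then form the coat. BAR domain proteins such as SNX9 sense or bend the neck of the pit, dynamin cuts it, and synaptojanin and the kinase GAK help to strip the coat. In erythroid cells the route carries transferrin and its receptor, and so iron, into the cell.

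The values are normalised counts deposited by the authors, and their sums per library lie between 43.5 M and 53.3 M. How many reads stand behind a value is unknown, so errors are the spread between libraries alone. The replicates are labelled biological, but separate cultures or clones are not stated. The p-values therefore refer to that spread, which may be technical in part. Log2 differences are KO-labelled minus WT on log2(value + 1), tested with limma over all 16658 genes, with Benjamini-Hochberg adjustment and a threshold of 0.05. A fold is 2 to the power of the size of that difference. Libraries with the same replicate number deviated together, most clearly in number 1, while numbers 2 and 3 also correlated when crossed. A blocked fit, which takes the replicate number as a factor, was therefore run too and is quoted for each member whose call changes. All 9 K562 markers were measured, with summed values from 81800 to 141000 in WT and from 93400 to 141000 in KO-labelled libraries. Of the 9, 1 rose: the embryonic globin gene HBE1 went from 1387, 1031 and 1527 in WT to 9391, 10442.6 and 17322 in KO-labelled libraries (9.19-fold, adjusted p 7.84e-04, limma). Among all tested genes 5.37% rose in that fit. With the block 3 of the 9 markers were higher and 2 lower, beside 19.7% and 20.0% of all tested genes. The summed values of 4 lymphoid marker genes ran from 509 to 1810 in WT and from 1000 to 1780 in KO-labelled libraries, and those of 4 epithelial and fibroblast genes, nearly all of it EPCAM, from 4370 to 5190 and from 4700 to 5290, so the groups overlapped in both. COL1A1, a low-level fibroblast gene, was at 4.68 to 32.2 in WT against 74.6 to 204 in KO-labelled libraries (adjusted p 0.0334, limma), and its part in the results was not tested. MS4A1, KRT5, KRT14 and LUM have no row in the table. In bulk RNA, fewer cells with a transcript and less of it per cell cannot be told apart.

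Most of these genes differed little between the groups, and 3 passed the test. FCHO1, which encodes a protein of the earliest membrane assemblies that seed a pit, fell 2.06-fold in the KO-labelled libraries. PICALM, which encodes the clathrin assembly protein CALM that links lipid, clathrin and the vesicle SNAREs, fell 1.5-fold. SNX33, a paralog of SNX9 that joins a membrane-bending domain to an SH3 domain, rose 1.78-fold. The remaining 31 did not pass. The share called, 3 of 34, stands beside 10.3% of all tested genes (5.37% higher and 4.96% lower), so it is near the background. With the replicate block 12 of the 34 passed, 7 higher and 5 lower, beside 39.7% of all tested genes (19.7% higher and 20.0% lower). The 3 calls of the unblocked fit were among the 12. Without WT replicate 3, KO-labelled replicate 2 or KO-labelled replicate 3 the unblocked limma test called 0 members, with 8, 9 and 6 at an unadjusted p under 0.05 and with 4.49%, 5.58% and 4.36% of all genes called. Without WT replicate 2 it called 1 (5.53% of all genes), without WT replicate 1 it called 4 (13.1%) and without KO-labelled replicate 1 it called 2 (7.29%). With both replicate 1 libraries left out 10 members passed, beside 28.4% of all tested genes. At an unadjusted p under 0.05 there were 10 members in the fit to all libraries, beside 23.8%.

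The median log2 difference of the 34 genes was -0.05 and that of all tested genes -0.02. Its median size was 0.18 for the members, 0.31 for all tested genes and 0.22 for the 9281 tested genes with a mean of 500 or more, a level that 32 of the 34 reach. A size under 0.2 was found for 20 of the 34, and for 34.7% of all tested genes and 45.3% of those with a mean of 500 or more. The KO-labelled and WT values did not overlap for 10 members, 6 higher and 4 lower, a share of 29.4% beside 30.0% of all tested genes (15.2% higher and 14.7% lower).

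**Figure D1:**
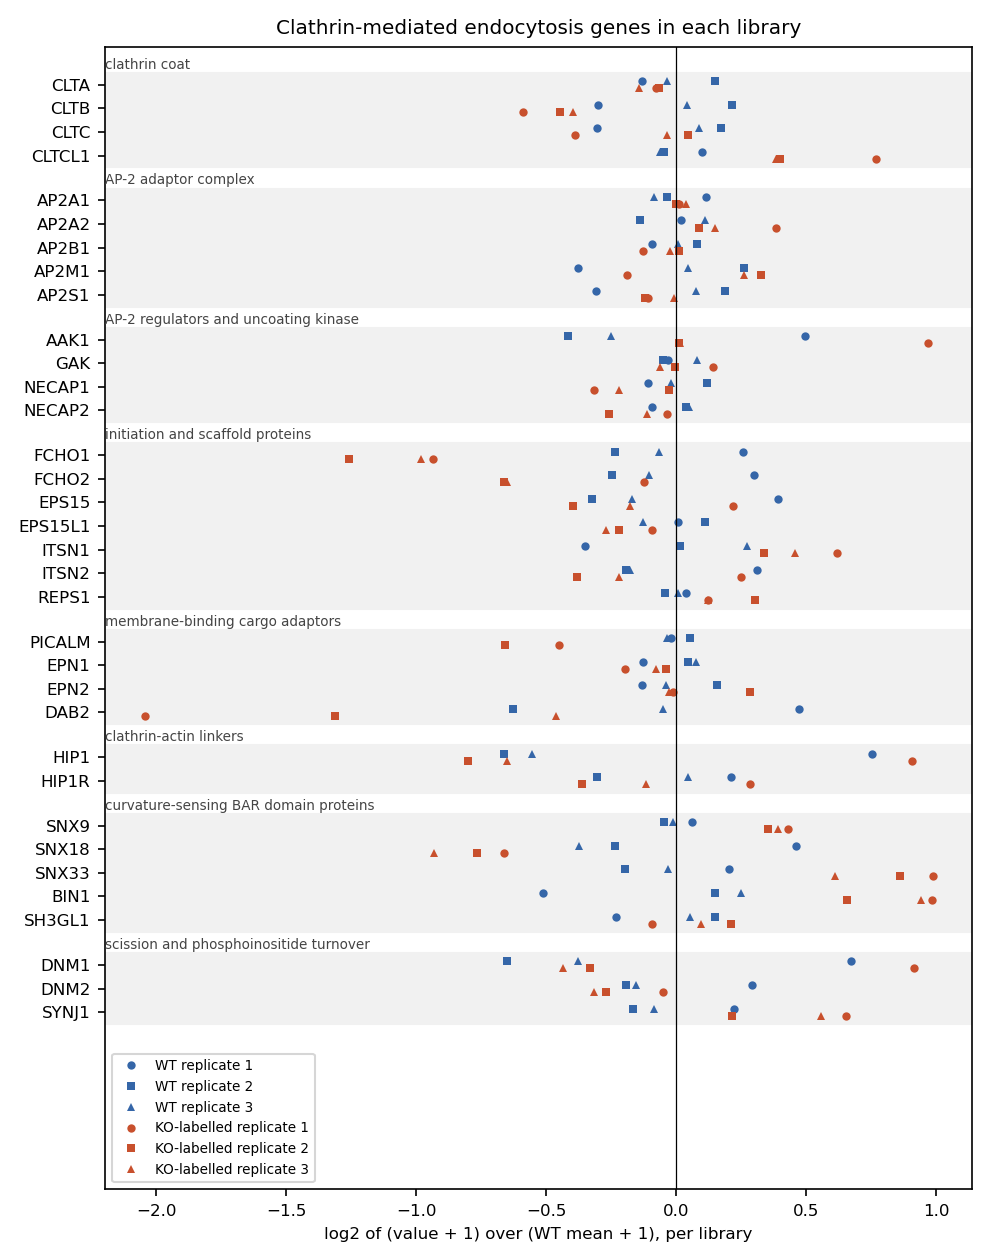
Each point is 1 library, plotted as the log2 of its normalised count + 1 over the WT mean + 1, with genes in rows by role, WT in blue, KO-labelled in red, and circles, squares and triangles for replicates 1, 2 and 3. The red points of FCHO1 and PICALM lie left of all blue ones, those of SNX33 lie right of them, and the circles of HIP1, DNM1 and AAK1 lie far right in both groups.

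**Figure D2:**
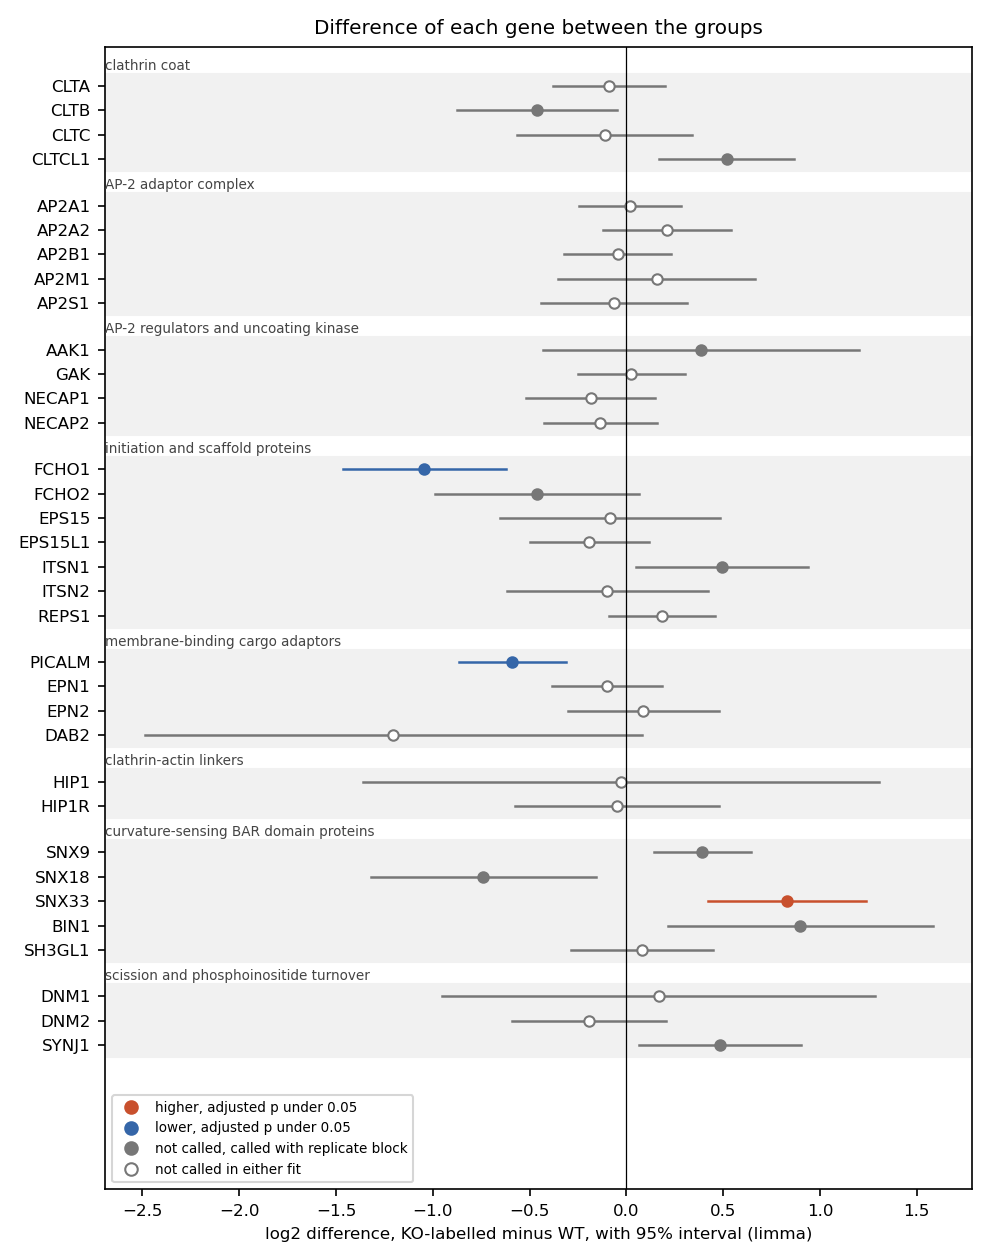
Log2 difference between KO-labelled and WT libraries with its 95% interval from limma, by role. The coloured symbols mark the 3 genes that passed an adjusted p of 0.05, and filled grey symbols the 9 further genes that passed with the replicate block.

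The start regions of the 3 genes that passed and of SNX9 are shown because the series asks about transcription driven by STAT5, whose sites carry the letters TTCNNNGAA. They are the 250 bases before the RefSeq start nearest to that of the principal transcript, read 5′ to 3′ on the strand of the gene, from GRCh38.p14. FCHO1 is chr19:17751227-17751476 (plus strand), PICALM chr11:86069085-86069334 (minus), SNX33 chr15:75647662-75647911 (plus) and SNX9 chr6:157822996-157823245 (plus). Capitals mark the GC box letters GGGCGG, or CCGCCC where they lie on the other strand.
FCHO1: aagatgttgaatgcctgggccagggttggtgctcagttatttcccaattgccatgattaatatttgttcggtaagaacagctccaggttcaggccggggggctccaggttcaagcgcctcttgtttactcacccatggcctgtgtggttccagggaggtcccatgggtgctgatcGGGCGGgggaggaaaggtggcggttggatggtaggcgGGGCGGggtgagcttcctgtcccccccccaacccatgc
PICALM: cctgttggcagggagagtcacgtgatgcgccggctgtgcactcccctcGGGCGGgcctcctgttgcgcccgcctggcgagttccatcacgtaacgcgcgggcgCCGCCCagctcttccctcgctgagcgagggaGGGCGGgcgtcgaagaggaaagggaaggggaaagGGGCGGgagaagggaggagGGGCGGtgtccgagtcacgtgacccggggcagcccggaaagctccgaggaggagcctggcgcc
SNX33: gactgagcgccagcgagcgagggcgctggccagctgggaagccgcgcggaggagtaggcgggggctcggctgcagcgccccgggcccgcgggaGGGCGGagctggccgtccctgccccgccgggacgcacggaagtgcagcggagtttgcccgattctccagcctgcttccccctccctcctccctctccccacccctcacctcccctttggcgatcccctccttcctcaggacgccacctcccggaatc
SNX9: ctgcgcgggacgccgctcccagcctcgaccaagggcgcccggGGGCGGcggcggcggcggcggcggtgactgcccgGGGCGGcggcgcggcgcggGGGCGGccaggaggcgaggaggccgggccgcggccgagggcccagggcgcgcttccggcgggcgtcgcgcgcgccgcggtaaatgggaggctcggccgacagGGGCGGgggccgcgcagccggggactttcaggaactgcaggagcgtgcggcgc

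All 35 genes were matched to 49 RefSeq start windows of 300 bases. TTCNNNGAA, which reads alike on both strands, was found in 0 of the 49, and in 7.66% of all 35116 windows and 6.09% of the 15978 windows of tested genes. GGGCGG on either strand was found in 40 of the 49 (81.6%), in 45.0% of all windows and in 65.2% of those of tested genes. In the sequences printed there are 2 GC boxes for FCHO1, 5 for PICALM, 1 for SNX33 and 4 for SNX9. These matches describe letters in the window only, and the GC box was picked after matches were counted.

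The clathrin coat changed in none of its 4 genes by the unblocked test. CLTC, the ubiquitous heavy chain, stood at 39940.3, 55619 and 52434 in replicates 1 to 3 of WT, and at 37624, 50948 and 48076 in those of the KO-labelled cells. The groups overlapped, and replicate 1 was the lowest library of each. The log2 difference was -0.11 (SE 0.19, 95% interval -0.56 to 0.34, adjusted p 0.787, limma). CLTA, a light chain gene, had 3762, 4563 and 4021 against 3896, 3934 and 3730.4, a log2 difference of -0.09 with an interval from -0.38 to 0.20 (adjusted p 0.725, limma). The other light chain gene, CLTB, had 1083, 1549 and 1372 in WT against 888, 980.3 and 1013 in KO-labelled libraries. Every KO-labelled value lay below every WT value, with a log2 difference of -0.46 (SE 0.17). The adjusted p was 0.164, 0.011 with the block and 0.044 without WT replicate 1 (limma). Leaving out any other single library gave an adjusted p from 0.301 to 0.409 (limma). CLTCL1, the second heavy chain gene, which is best known in muscle, had 3497, 3159.8 and 3128 in WT against 5558, 4298 and 4251 in KO-labelled libraries, all above WT. Its log2 difference was 0.52 (SE 0.15) and its adjusted p 0.0759 (blocked, 0.0018; limma).

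Divided by the length of the longest principal transcript in GENCODE 29, the WT means were 6360 normalised counts per kilobase for CLTC, 3570 for CLTA, 1100 for CLTB and 592 for CLTCL1. CLTC was thus the leading heavy chain by this measure and CLTA the leading light chain. The length-scaled ratio of CLTC to CLTCL1 was 8.11, 12.5 and 11.9 in WT against 4.81, 8.42 and 8.03 in KO-labelled libraries, so that KO-labelled replicate 2 fell within the WT range. That of CLTA to CLTB was 3.66, 3.11 and 3.09 in WT against 4.63, 4.23 and 3.88 in KO-labelled libraries, with no overlap. For CLTA over CLTB a two-sided exact permutation test reached p = 0.1, the lowest value possible for 3 libraries against 3, and 0.26 after adjustment over the 13 ratios of paralogs that were computed. For CLTC over CLTCL1 the exact p was 0.2 (0.325 adjusted).

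AP-2 is the heterotetramer that ties cargo and lipid to clathrin, and none of its 5 genes passed in either fit. Log2 differences ran from -0.06 for AP2S1 (sigma subunit) to 0.21 for AP2A2 (an alpha subunit), with adjusted p-values from 0.432 to 0.947 (limma). AP2A1, the other alpha subunit gene, stood at 9744, 8792 and 8483 in WT against 9071, 8996 and 9239 in KO-labelled libraries. AP2B1, which encodes the beta subunit that binds clathrin, had 21233, 23934 and 22723 against 20706, 22816 and 22285. These pairs of groups overlap throughout, and the 95% intervals of AP2A1 (-0.25 to 0.28) and AP2B1 (-0.32 to 0.23) limit a change to well within 2-fold. AP2M1, which encodes the mu subunit that reads tyrosine signals in cargo, had 4678, 7282 and 6275 against 5338, 7612 and 7287, with the lowest value in replicate 1 of each group. AP2S1 had 2089, 2946 and 2728 against 2399, 2379.5 and 2571. AP2A2 overlapped at a single pair of libraries, with 2240.3, 2009.8 and 2386 in WT against 2888, 2348 and 2454 in KO-labelled libraries. Per kilobase of principal transcript the WT means were 6630 for AP2B1, 3150 for AP2M1, 2770 for AP2S1, 2740 for AP2A1 and 483 for AP2A2.

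The regulators of AP-2 include kinases and small binding proteins. AAK1 encodes the kinase that phosphorylates the mu subunit of AP-2. Its values were 2582, 1373 and 1542 in WT against 3587, 1844 and 1850.2 in KO-labelled libraries. Replicate 1 was the highest in both groups and the groups overlap, yet the KO-labelled value was above the WT value of its number in each replicate. The log2 difference was 0.39 (SE 0.34), and limma gave an adjusted p of 0.57 (blocked, 0.00799). Leaving out KO-labelled replicate 1 brought the difference to 0.0682, and leaving out WT replicate 1 or 2 brought it to 0.66 or 0.21. GAK, a related kinase that brings the uncoating chaperone to clathrin, had a log2 difference of 0.03 (95% interval -0.25 to 0.30). NECAP1 and NECAP2, which encode proteins that bind AP-2 on the pit, had log2 differences of -0.18 and -0.13 (SE 0.14 and 0.12). None of these 4 genes passed the unblocked test.

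Among 7 genes of pit initiation and scaffolding, 1 fell and 6 did not pass. FCHO1 spans 17747718 to 17788568 of chromosome 19 in GRCh38, on the plus strand. Its values were 2674, 1901 and 2139 in WT against 1169.8, 936 and 1132 in KO-labelled libraries. The highest KO-labelled value is far below the lowest WT value. Means were 2238 ± 396 and 1079 ± 126 (SD, n = 3 each), and the log2 difference was -1.04 (SE 0.18, 95% interval -1.46 to -0.62, adjusted p 0.0132, and 1.96e-04 with the block, limma). Leaving out WT replicate 3 gave an adjusted p of 0.0618, and leaving out KO-labelled replicate 2 or 3 gave 0.0556 or 0.0591 (limma), while the log2 difference stayed between -1.15 and -0.91 in the 6 fits that left out 1 library. Among the 34 genes it was the only call of at least 2-fold, where 7.31% of all tested genes were called and at least 2-fold.

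FCHO2, the paralog of FCHO1 with the same membrane-binding F-BAR domain, had 1508, 1033 and 1139.6 in WT against 1125, 776 and 781 in KO-labelled libraries. Here the groups overlap through replicate 1, and the log2 difference was -0.46 (SE 0.22) and limma gave an adjusted p of 0.272 (blocked, 0.00631). Without WT replicate 1 the difference was -0.30. Per kilobase of principal transcript FCHO1 led FCHO2 in every library, by 2.76, 2.86 and 2.92 times in WT and by 1.62, 1.88 and 2.25 times in KO-labelled libraries. The 2 ranges do not overlap (exact two-sided permutation p = 0.1, 0.26 adjusted over 13 ratios). ITSN1, which encodes the scaffold intersectin 1, an exchange factor for Cdc42 in its long form, had 1486, 1913 and 2288 in WT against 2910.2, 2396 and 2605 in KO-labelled libraries. All KO-labelled values were above WT, and the log2 difference was 0.49 (SE 0.19) and limma gave an adjusted p of 0.165 (blocked, 0.0337). Its 3 differences by replicate number were 0.97, 0.32 and 0.19, the largest in number 1. REPS1, which encodes an EH domain protein that binds Ral effectors, also had no overlap (log2 difference 0.18, SE 0.12, adjusted p 0.409, limma). EPS15, EPS15L1 and ITSN2, whose products bind one another and AP-2, had log2 differences of -0.08, -0.19 and -0.10, and none passed in either fit.

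Of 4 cargo adaptors that bind the membrane directly, PICALM fell and 3 did not pass. PICALM spans 85957684 to 86069882 of chromosome 11, on the minus strand. Values were 15455, 16232 and 15269 in WT against 11447, 9921 and 9904 in KO-labelled libraries, the means 15652 ± 511 and 10424 ± 886 (SD, n = 3 each). The WT libraries lie within a narrow band and every KO-labelled library is below it. The log2 difference was -0.59 (SE 0.12, 95% interval -0.87 to -0.31), and limma gave an adjusted p of 0.0229 (blocked, 8.05e-04). Leaving out WT replicate 2 or 3 gave an adjusted p of 0.0949 or 0.1, and leaving out KO-labelled replicate 2 or 3 gave 0.0969 or 0.122 (limma). It was 0.0568 without the intensity trend and 0.079 after quantile normalisation, fits in which 2 members passed beside 9.60% and 11.6% of all tested genes. In those fits the log2 difference lay between -0.61 and -0.48. The epsin genes EPN1 and EPN2, whose products insert a helix into the membrane, had log2 differences of -0.10 and 0.09 with SE of 0.12 and 0.16. DAB2, an adaptor for LDL receptor family cargo, was near the floor of the assay with 25.4, 11.3 and 17.3 in WT against 3.61, 6.66 and 12.8 in KO-labelled libraries, which overlap (adjusted p 0.238, limma).

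HIP1 and HIP1R encode the proteins that tie clathrin light chains to actin. HIP1 had 1658, 621 and 669 in WT against 1846, 563 and 626 in KO-labelled libraries. Replicate 1 stood apart in both groups while the genotypes ran together, and the log2 difference was -0.03 with a wide 95% interval from -1.36 to 1.30. With the block the standard error was 0.10 in place of 0.56, and the adjusted p was 0.851 (limma). HIP1R had a log2 difference of -0.05 (SE 0.22, adjusted p 0.927, limma).

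Of 5 measured BAR domain genes 1 rose and 4 did not pass. The groups did not overlap for 4 of the 5, beside 30.0% of all tested genes, and 1 of these 4 is SNX18, on chromosome 5. SNX9, SNX18 and SNX33 form 1 family, whose proteins couple membrane curvature to dynamin and to actin assembly. SNX9, the member that binds ACK, spans 157700387 to 157945077 of chromosome 6, on the plus strand. It had 4981, 4626 and 4733 in WT against 6443, 6107 and 6277 in KO-labelled libraries. The groups are clearly apart, with means of 4779.8 ± 182 and 6276 ± 168 (SD, n = 3 each), a fold of 1.31. The log2 difference was 0.39 (SE 0.11, 95% interval 0.14 to 0.64) and the adjusted p 0.0633, short of the threshold, and 0.00229 with the block (limma). The 3 differences by replicate number were 0.37, 0.40 and 0.41. Centring each chromosome on its own median gave 0.45 and an adjusted p of 0.0403 (limma), which is past the threshold. Without WT replicate 2, WT replicate 3 or any 1 of the KO-labelled libraries the unblocked, uncentred fit called 0 members higher. SNX9 therefore did not pass in those fits.

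SNX33 spans 75647906 to 75662301 of chromosome 15, on the plus strand. It had 1036, 785 and 881 in WT against 1785, 1635 and 1376 in KO-labelled libraries, with means of 901 ± 127 and 1598 ± 207 (SD, n = 3 each). All KO-labelled values are above WT. The log2 difference was 0.83 (SE 0.17, 95% interval 0.42 to 1.24), and limma gave an adjusted p of 0.0274 (blocked, 0.00107). Leaving out WT replicate 2 or 3 gave an adjusted p of 0.101 or 0.116, and leaving out KO-labelled replicate 1, 2 or 3 gave 0.0764, 0.104 or 0.0656 (limma), with log2 differences from 0.73 to 0.93. IMP3, on the opposite strand, covers 10.0% of the annotated exon bases of SNX33, and the sources used here do not say whether counting used strand, so reads of the 2 genes may be mixed.

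SNX18 went the other way, with 1493, 921 and 837 in WT against 684, 637 and 568 in KO-labelled libraries. Every KO-labelled value is below WT, and WT replicate 1 is the high one. The log2 difference was -0.74 (SE 0.24, adjusted p 0.118, and 0.00568 with the block, limma), and -0.48 without WT replicate 1. Per kilobase of principal transcript SNX9 was the highest of the family in WT, with a mean of 1140, against 208 for SNX18 and 112 for SNX33. The length-scaled ratio of SNX33 to SNX18 was 0.452, 0.555 and 0.686 in WT against 1.7, 1.67 and 1.58 in KO-labelled libraries. Their order by this measure was thus reversed, but it depends on the transcript lengths used. In the unscaled values SNX33 was already above SNX18 in WT replicate 3 (881 against 837). The length-scaled ratio of SNX9 to SNX18 went from 4.15, 6.24 and 7.03 to 11.7, 11.9 and 13.7. That of SNX9 to SNX33 went from 9.17, 11.2 and 10.2 to 6.88, 7.13 and 8.7. None of the 3 ratios overlaps between groups, each with an exact two-sided permutation p of 0.1 (0.26 adjusted over 13 ratios).

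**Figure D3:**
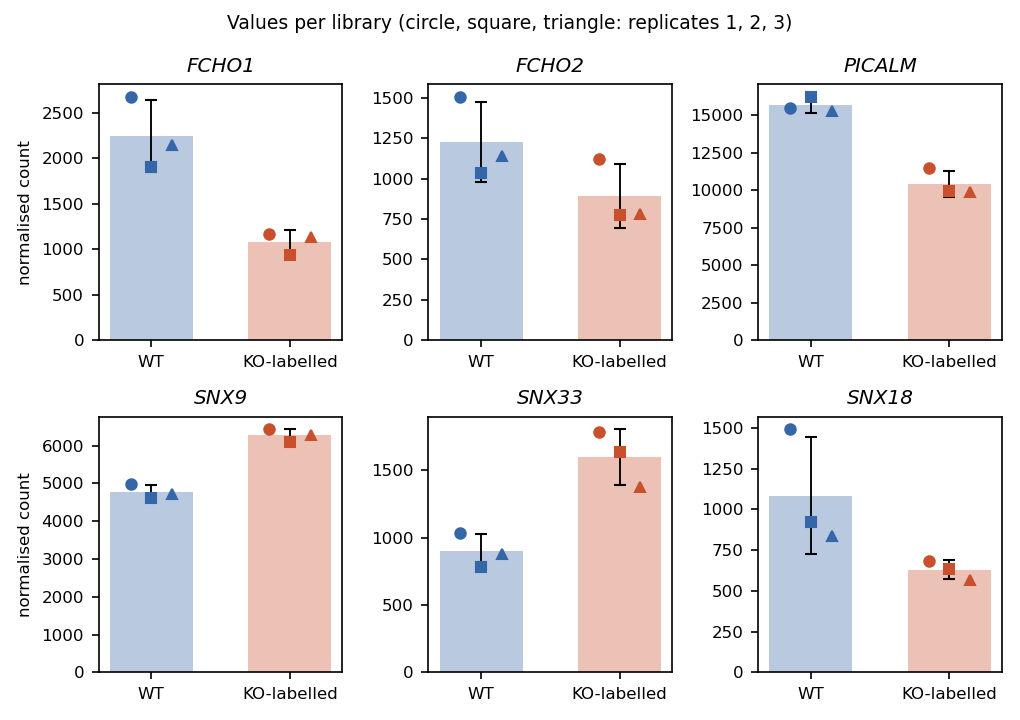
Normalised counts of the FCHO genes, PICALM and the SNX9 family. Bars are means of 3 libraries, error bars the SD, and symbols the libraries. FCHO1, PICALM and SNX18 are lower and SNX9 and SNX33 higher in every KO-labelled library than in any WT library, while FCHO2 overlaps.

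BIN1, which encodes amphiphysin 2, was a low-level member with 63.9, 102 and 109 in WT against 183, 145 and 177 in KO-labelled libraries. It had no overlap and a log2 difference of 0.90 (SE 0.29), and limma gave an adjusted p of 0.109 (blocked, 0.0241). Its differences by replicate number were 1.5, 0.51 and 0.69. SH3GL1, the endophilin A2 gene, had a log2 difference of 0.08 (95% interval -0.28 to 0.45).

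None of 3 genes of scission and phosphoinositide turnover passed the unblocked test. DNM2, the ubiquitous dynamin gene, had 12017, 8588 and 8809 in WT against 9470.2, 8139 and 7884 in KO-labelled libraries, overlapping groups with a log2 difference of -0.19 (SE 0.17, adjusted p 0.561, limma). DNM1, the neuronal dynamin gene, had 1545, 618 and 748 against 1831, 769.9 and 718, with replicate 1 high in both. SYNJ1, whose phosphatase product clears the lipid that holds the coat, had 1819.9, 1393 and 1471 in WT against 2457, 1813 and 2295 in KO-labelled libraries. The groups overlap only at WT replicate 1 and KO-labelled replicate 2, and the log2 difference was 0.48 (SE 0.18, adjusted p 0.15, and 0.00413 with the block, limma).

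Position on the chromosome moved with several of the lower values. Chromosome 5 holds 4 of the 34 genes, and across its 693 tested genes the median log2 difference was -0.62. The 20 nearest tested genes of CLTB, FCHO2, SNX18 and DAB2 had medians of -0.72, -0.67, -0.56 and -0.42, beside -0.46, -0.46, -0.74 and -1.20 for the genes themselves. When each library was centred on the median of the chromosome, the differences of these genes became 0.14, 0.14, -0.14 and -0.60, with adjusted p-values from 0.622 to 0.834 (limma). Of these 4, CLTB, FCHO2 and SNX18 had passed with the block. With the block and the centring together none of the 3 passed (for SNX18 the adjusted p was 0.498, limma). ITSN1 did not pass in that fit either (0.0527), whereas HIP1 did, with a log2 difference of -0.44 (adjusted p 0.0152, limma). HIP1 lies on chromosome 7, whose median was 0.39, and its neighbours had a median of 0.34 beside its own -0.03. CLTB, FCHO2 and SNX18 are also the denominators of the length-scaled ratios of CLTA, FCHO1, SNX9 and SNX33 to them. The part of chromosome 5 in those ratios was not tested.

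The 3 genes that passed lie elsewhere. The neighbours of FCHO1 had a median of -0.02 and those of PICALM of 0.03, beside -1.04 and -0.59 for the genes. After chromosome centring the log2 difference was -0.996 for FCHO1 and -0.61 for PICALM, with adjusted p-values of 0.0284 and 0.0312 (limma). Around SNX33 the neighbours were higher too, with a median of 0.32 beside its own 0.83, and 0.74 after centring (adjusted p 0.0291, limma). The neighbours of SNX9, ITSN1, SYNJ1, BIN1 and AAK1 had medians between -0.14 and 0.00, and those of CLTCL1 of 0.14. After centring 4 of the 34 genes passed, beside 7.82% of all tested genes (4.20% higher and 3.62% lower), and with the block as well 9 passed, beside 34.0%.

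**Figure D4:**
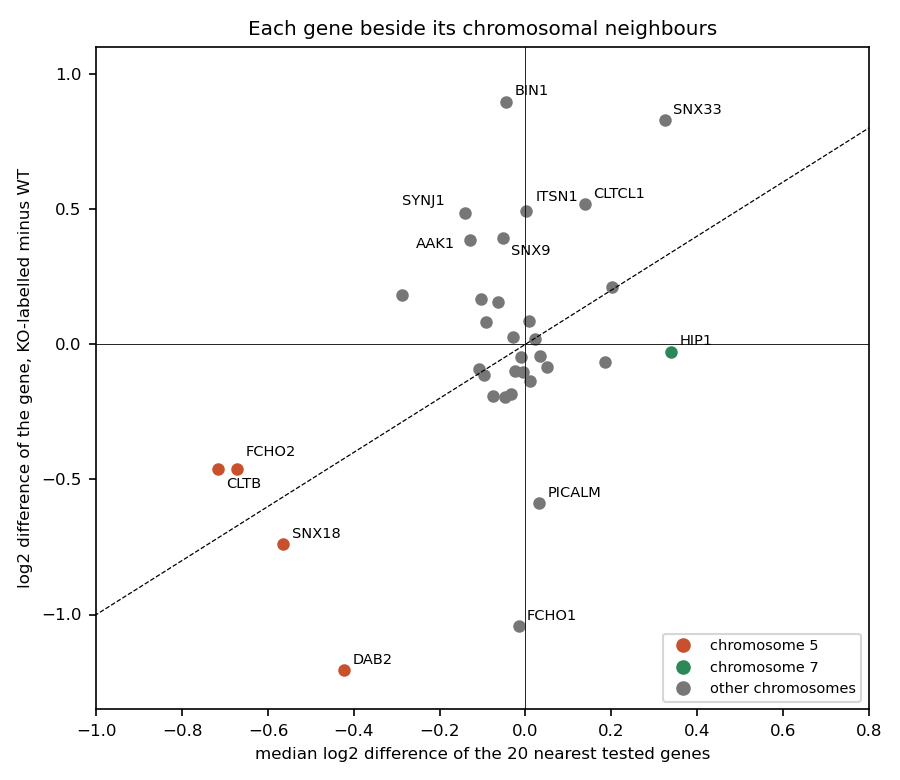
Log2 difference of each gene against the median log2 difference of its 20 nearest tested genes, with a dashed line of equality. The chromosome 5 genes CLTB, FCHO2 and SNX18 lie near the line, FCHO1 and PICALM lie well below it at a neighbour median near 0, and SNX33 lies above it.

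Variation between replicates was large for some members and shared by the genotypes. Replicate 1 was the highest of 3 in both groups for 14 of the 34 and the lowest in both for 7, beside 34.4% and 33.3% of all tested genes. HIP1 in replicate 1 was 2.57 times the mean of replicates 2 and 3 in WT against 3.1 times in KO-labelled libraries, DNM1 2.26 and 2.46 times, and AAK1 1.77 and 1.94 times. EPS15 (1.56 and 1.41), ITSN2 (1.41 and 1.46) and FCHO2 (1.39 and 1.44) were higher in replicate 1 as well. AP2M1 (0.69 and 0.716) and CLTC (0.739 and 0.76) were lower. PICALM was nearly flat at 0.981 and 1.15, and SNX9 at 1.06 and 1.04. SNX18 (1.7 and 1.14), BIN1 (0.605 and 1.13) and ITSN1 (0.708 and 1.16) had ratios further apart between the genotypes, a difference that was not tested. What sets replicate 1 apart is not given in the labels.

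**Figure D5:**
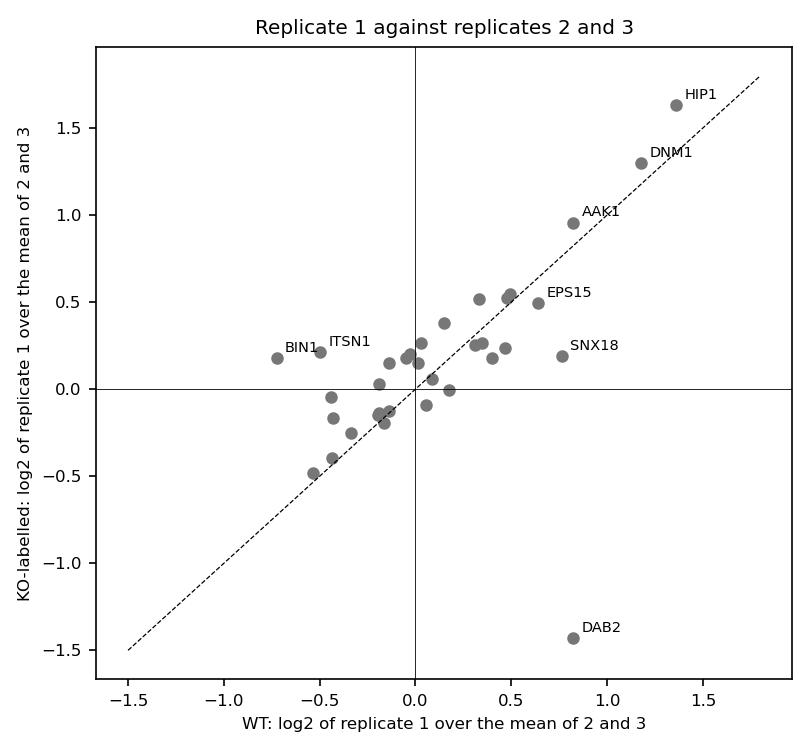
Log2 ratio of replicate 1 to the mean of replicates 2 and 3, in WT (horizontal) and KO-labelled libraries (vertical), 1 point per gene with the line of equality. HIP1, DNM1 and AAK1 lie high on both axes, and DAB2, a low-level gene, lies off the line.

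Further genes of the same route came from a list of 35, of which 30 were tested. Of these 3 rose, 0 fell and 27 did not pass, beside 5.37% higher and 4.96% lower among all tested genes. With the block 8 were higher and 4 lower (limma), beside 19.7% and 20.0%. SH3GL3, the endophilin A3 gene, rose 3.66-fold, from 1228, 952 and 749 in WT to 3955, 3053 and 3561 in KO-labelled libraries (adjusted p 0.00267, limma). FNBP1L, which encodes the Cdc42-binding F-BAR protein Toca-1, rose 2.34-fold, from 639.8, 365 and 358 to 1224, 915 and 966 (adjusted p 0.0333, limma). In both genes every KO-labelled value was above every WT value. SH3GL3 kept its call whichever library was left out. The call of FNBP1L was lost without any library but WT replicate 1, with adjusted p-values from 0.0855 to 0.131 (limma). The 20 nearest genes of FNBP1L had a median log2 difference of 0.57 beside its own 1.23.

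The cargo receptors showed 0 calls among 10 tested genes by limma, beside 10.3% of all tested genes. At an unadjusted p under 0.05 there were 2 of them, beside 23.8%. With the block 2 were higher and 4 lower, beside 19.7% and 20.0%. The transferrin receptor gene TFRC had 21311, 46624 and 48662 in WT against 19427, 27422 and 31014 in KO-labelled libraries. The groups overlap at WT replicate 1, the low one, and the adjusted p was 0.447 (blocked, 0.0121; limma). LRP8, a receptor of the LDL receptor family, had 3861, 3956 and 3986 in WT against 2025, 3241 and 3088 in KO-labelled libraries, all below WT, and limma gave an adjusted p of 0.157 (blocked, 0.0148). SORT1, the sortilin gene, was lower too (log2 difference -0.32, adjusted p 0.132, blocked 0.00898, limma). The 2 receptors that were higher with the block were TFR2, the second transferrin receptor gene, with a log2 difference of 0.33 (adjusted p 0.314, blocked 0.0144), and LRP1, with 0.94 (adjusted p 0.491, blocked 0.036, limma). The groups overlapped for both. These 5 receptors were chosen after their values were seen. The list of ACK and its binding partners held 6 genes and left out SNX9 and the clathrin genes, which are members. Of the 6, 0 passed in either limma fit, beside 10.3% of all tested genes without the block and 39.7% with it. At an unadjusted p under 0.05 there were 0 without the block, beside 23.8%, and 1 with it, beside 8154 of all 16658 genes (limma). With the block and chromosome centring together 1 was lower, beside 34.0% of all tested genes called. CDC42 itself had a log2 difference of -0.18 (SE 0.23).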

How the data were processed

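RNA-seq values of 6 K562 libraries, 3 WT and 3 labelled ACK KO, were read from 1 table. The authors deposited it as a signal per gene, counts after their normalisation. Per the submitters' processing notes reads were processed on GRCh38 with Salmon 1.1.0, STAR 2.7.2b and DESeq2 1.26.0, beside FastQC 0.11.7, R 3.6.1 and SAMtools, with no role or order given. The annotation release, the scaling and the way reads were counted were not given in the sources used here. It was not possible to recover whole reads: in a library, 35.5% to 53.5% of the values between 0 and 20 lay within 5% of a whole multiple of a common step. The lowest gene mean is 3.38, so a filter had been applied. Of 19498 identifiers 19392 had a symbol and 19112 a GENCODE 29 position.

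Log2(value + 1) was fitted with limma 3.58.1 (R 4.3.3) with an intensity trend on all 16658 genes with 10 or more in at least 3 libraries, with Benjamini-Hochberg adjustment, and the fit was tested on simulated data. The replicate numbers come from the labels. Deviations from the group means correlated at 0.699, 0.521 and 0.342 for libraries of the same number, above a limit of 0.1, and at 0.281 and 0.257 for numbers 2 and 3 crossed, so a fit with the number as a block was run as well. Chromosome centring subtracts from each library the median deviation of the tested genes on a chromosome. Other alternatives were pseudocounts of 0.5 and 5, no filter or a filter of 50, median ratio and quantile scaling, no trend, robust moderation, and leaving out libraries. All members are named, with TNK2 and the genes past the threshold of each further list. Of these, 1 gene is not reported here. The further lists were other genes of the route, cargo receptors, AP-1, AP-3 and GGA adaptors, clathrin-independent entry, ACK partners and the K562, lymphoid, epithelial and fibroblast markers. The members and lists were chosen with earlier results of these data known. Promoters came from RefSeq (GRCh38.p14).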

Additional observations from a re-analysis of the deposited data

How the results depend on the processing

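The number of reads is unknown and 3 libraries a group limit the precision. Counts of calls moved most. For all tested genes the count was 1721, for the 34 members 3 and for the further lists, markers left out, 8 of 73. With the replicate block these were 6612, 12 and 29. They were 4731, 10 and 19 with both replicate 1 libraries left out, and 5672, 9 and 27 with the block and chromosome centring together, a combination chosen after seeing the data. Centring alone gave 5 for the further lists. Leaving out 1 library in turn gave 726 to 2183 calls over all genes, 0 to 4 among the members and 3 to 11 in the further lists. Apart from the blocked calls named above, the pairing by replicate number changed no other call of a member. Other pseudocounts, filters, scalings and variance models kept each of the 3 counts within 1.5 times, though PICALM was lost in 2 of them.

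Some differences that did not pass in the unblocked fit changed sign in some settings, and the cause was not tested. Centring gave 0.14 for CLTB and 0.14 for FCHO2, with or without the block. Quantile normalisation gave 0.0196 for CLTC, 0.0747 for AP2B1 and 0.0338 for EPS15. GAK was -0.0473 with both replicate 1 libraries left out. With 1 library left out, log2 differences ran from -0.26 to 0.0192 for CLTC, -0.0243 to 0.0757 for AP2A1, -0.0203 to 0.32 for AP2M1, -0.21 to 0.0363 for AP2S1, -0.0315 to 0.0692 for GAK, -0.25 to 0.13 for EPS15, -0.28 to 0.0664 for ITSN2, -0.0154 to 0.17 for EPN2, -0.57 to 0.43 for HIP1, -0.22 to 0.10 for HIP1R, -0.0304 to 0.16 for SH3GL1 and -0.27 to 0.56 for DNM1.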

Other observations

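Adaptors of internal membranes that also use clathrin or resemble AP-2 fell in 3 of 17 tested genes and rose in 0 (limma), beside 4.96% lower and 5.37% higher among all tested genes. With the block 1 was higher and 5 lower, beside 19.7% and 20.0%. The lower ones include AP1S3 on chromosome 2 (log2 difference -0.94, adjusted p 0.055, blocked 0.00261, limma). They also include AP1S2 on chromosome X (log2 difference -0.44, adjusted p 0.18, blocked 0.00334, limma). Both had no overlap between groups and were chosen after their values were seen. Their neighbours had medians of 0.05 and -0.12. AP3B1 and AP3S1, subunits of the lysosomal AP-3 adaptor, fell 1.72-fold and 1.66-fold, and CLINT1, the epsin-like adaptor of the Golgi, fell 1.91-fold. The values of CLINT1 were 7503, 10247 and 9655 in WT against 3872, 5299.7 and 5185 in KO-labelled libraries. Adjusted p-values were 0.0109 for AP3B1, 0.035 for AP3S1 and 0.0227 for CLINT1 (limma). AP3B1, AP3S1 and CLINT1 lie on chromosome 5, and their 20 nearest genes had median log2 differences of -0.75, -0.47 and -0.80. After chromosome centring their log2 differences were -0.18, -0.13 and -0.33, and the adjusted p-values 0.492, 0.728 and 0.37 (limma). The calls also depended on single libraries. Without WT replicate 2, WT replicate 3 or KO-labelled replicate 3 in turn, the adjusted p was 0.0517, 0.0658 and 0.0592 for AP3B1, 0.127, 0.152 and 0.121 for AP3S1 and 0.0864, 0.107 and 0.0752 for CLINT1. Without KO-labelled replicate 1 or 2 it was 0.0901 and 0.0899 for AP3S1 and 0.0513 and 0.0569 for CLINT1 (limma).

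In clathrin-independent entry 1 of 10 tested genes rose, 1 fell and 8 did not pass, beside 10.3% of all tested genes called. With the block 3 were higher and 2 lower, beside 39.7%, the further ones being EHD2 (log2 difference 0.55, blocked adjusted p 0.00587), FLOT2 (0.22, 0.036) and EHD4 (-0.38, 0.0166, limma). With no filter on low values 12 genes were tested, of which 3 were called higher and 1 lower, beside 1738 of all 19498 genes. The genes added there reach a value of 10 in fewer than 3 libraries. CAV2, a caveolin gene on chromosome 7, rose 27.1-fold, from 21.1, 22.3 and 30.4 in WT to 833, 566 and 682 in KO-labelled libraries (adjusted p 1.65e-04, limma). CAVIN2, which encodes a coat protein of caveolae, fell 4.49-fold, from 4054, 4451 and 5142 to 1021, 766 and 1310.4 (adjusted p 0.00162, limma). Both kept their calls whichever library was left out. CAVIN1, another coat gene of caveolae chosen after its values were seen, had means of 2694 ± 651 and 2908 ± 1043 (SD, n = 3 each; adjusted p 0.911, limma).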
